A study of Homo sapiens with 4 samples.

Results

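The mRNAs that encode the ribosome's own proteins and the factors that run translation were examined as crosslinking targets of PRRC2B, an arginine-glycine rich RNA-binding protein. A gene was a member if it was protein-coding and its symbol began with RPL or RPS followed by a number, with RPLP, or with EIF, EEF, ETF1 or GSPT, and a site counted only if it was not assigned to an intron. Of the 175 protein-coding genes with such a symbol in GENCODE release 44, 46 carried at least 1 site and 129 carried none. These genes held 46 of the 716 non-intron mRNA sites in the list of full-length PRRC2B and 32 of the 437 in the list of its RNA-binding fragment, out of 894 and 571 distinct sites of every kind.

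The sites come from PAR-CLIP, which crosslinks a protein to RNA carrying a photoactivatable nucleoside, pulls it down and sequences the attached fragments, in HEK293T, a human embryonic kidney line that carries the SV40 large T antigen. Cells transfected with pcDNA3.1 plasmids overexpressed either FLAG-tagged full-length PRRC2B (FL) or FLAG-tagged P2, the truncated protein with the RG-rich motifs (RBD), with 2 replicates of each. All cells were labelled with 4-thiouridine (4sU), irradiated with UV, and lysed, and the protein was pulled down with anti-DYKDDDDK beads, with RNase T1 digestion in the lysate and on the beads. The labels name no removal of endogenous PRRC2B, no library lacking the FLAG protein and no RNA input was analysed here, and levels of bound protein and of each mRNA therefore cannot be told apart from binding strength in these lists. Each list pools its 2 replicates, so no value below has a replicate error and no test between FL and RBD was possible. Intervals are 95% intervals that cover counting error only, and reads are not independent molecules. How deeply each library was sequenced is unknown, so heights were compared within a list.

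A ribosome consists of a large and a small subunit, whose proteins are encoded by some of the most abundant mRNAs of a growing cell. Initiation factors bring the small subunit to the mRNA and place it on the start codon, elongation factors deliver aminoacyl-tRNA and move the ribosome along the coding sequence, and release factors free the finished protein. Many ribosomal protein genes also hold small nucleolar RNAs (snoRNAs) in their introns, which are trimmed out of the spliced intron and guide the modification of ribosomal RNA.

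The sequences under a selection of the sites follow, and they mark the peak and not the crosslinked base. Each line gives the middle 30 nt of a 100-nt site in the sense direction, read from the hg38 genome with T for U, and capitals mark the letters ACT and CTCT, which may overlap each other. The first set holds tall exonic sites present in both lists, at the position of the FL site.
RPL19 (coding sequence, chr17:39203049-39203078, plus strand): tgaggattttgcgccggctgctcagaagat
RPL15 (coding sequence, chr3:23919214-23919243, plus strand): tgtggggCTCTgagagtcctgaattcttac
RPLP0 (coding sequence, chr12:120198650-120198679, minus strand): aacatgctcaacatctcccccttctccttt
RPL13A (coding sequence or 3′UTR, chr19:49491842-49491871, plus strand): tgcgttgcctgcccttcctccattgttgcc
EEF2, taller site (coding sequence, chr19:3979366-3979395, minus strand): cggcgagctgcacctggagatctgcctgaa
EEF2, lower site (coding sequence, chr19:3983192-3983221, minus strand): ggcttcctcatcaacctcattgACTccccc
EIF4H (3′UTR, chr7:74196769-74196798, plus strand): cagaACTCTCTCTccttccttccacctgtc

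The second set holds sites close to the start codon, with the distance of the site centre from the A of the start codon in brackets in the spliced canonical transcript.
RPL36 (5′UTR, -26 nt, chr19:5690289-5690318, plus strand): gccagcccttccgccacggccgtCTCTgga
RPL38 (30 nt, chr17:74204142-74204171, plus strand): gaggaaatcaaggACTtcctgctcacagcc
RPLP1 (31 nt, chr15:69452965-69452994, plus strand): agctcgcctgcatctACTcggccctcattc
RPL27 (54 nt, chr17:42998790-42998819, plus strand): ctggctggacgctACTccggacgcaaagct
RPL35 (56 nt, chr9:124861488-124861517, minus strand): ggaggagctgctgaaacagctggacgacct
RPS15 (64 nt, chr19:1438853-1438882, plus strand): accgcggcgtggacctcgaccagctgctgg

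The third set holds the 5 sites of both lists that overlap a snoRNA gene inside the ribosomal protein gene.
RPL23A (SNORD42B, chr17:28720588-28720617, plus strand): tgatgtcttcaaaggaaccACTgatgcacc
RPL32 (SNORA7A, chr3:12840306-12840335, minus strand): attggaagacACTCTgcgacagtgttcagt
RPL17 (SNORD58B, chr18:49491664-49491693, minus strand): aataatgaaaacaACTACTCTCTgagcagc
RPS3 (SNORD15A, chr11:75400511-75400540, plus strand): atgACTtagaggcatttgtctgagaagggt
RPS2 (SNORA10, chr16:1962327-1962356, minus strand): ctgttcctaggagtgcgacaatttttgggt

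The last set holds the tallest sites found in 1 list alone, RPS24 in FL and RPLP2 in RBD, and the initiation factor site with the lowest pyrimidine content in these 30 nt.
RPS24 (FL, coding sequence, chr10:78037234-78037263, plus strand): gaaaggaacgcaagaacagaatgaagaaag
RPLP2 (RBD, coding sequence, chr11:810309-810338, plus strand): gatcttggacagcgtgggtatcgaggcgga
EIF3A (FL, coding sequence, chr10:119058142-119058171, minus strand): cagcgtgagaaagaagaattggaacagagg

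Ribosomal protein genes carried sites more often than factor genes did in these lists, and many mRNAs of both families carried none. In FL, 40 of the 175 genes (22.9%, 95% Wilson interval 17.3 to 29.6) had a site, where 3.2% of all 20020 protein-coding genes did. In RBD, 30 of 175 (17.1%, 12.3 to 23.4) had a site, against 1.91% of all protein-coding genes. Both shares therefore lay above those of all genes, but how much of that follows mRNA abundance was not tested, because the files hold no RNA levels. Sites appeared in both lists for 24 genes (13.7%), against 0.874% of all protein-coding genes, in FL alone for 16 and in RBD alone for 6, and in either list for 26.3% against 4.24%. These gene counts, and those by class below, include RPL32, RPL17, RPS3, RPS2 and, in RBD, EIF4A1. The only listed sites of these genes overlap a snoRNA gene, with centres in introns of the canonical transcripts. EIF2B5 is also counted, by its deposited name, although its listed sites lie in AP2M1 and EIF4G1. The site counts and site values keep its sites too. The readthrough gene RPL17-C18orf32 is counted as a gene of its own, with the site of RPL17. The 46 FL sites made up 6.42% (4.85 to 8.46) of the non-intron mRNA sites, and the 32 RBD sites 7.32% (5.23 to 10.2).

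**Figure D1:**
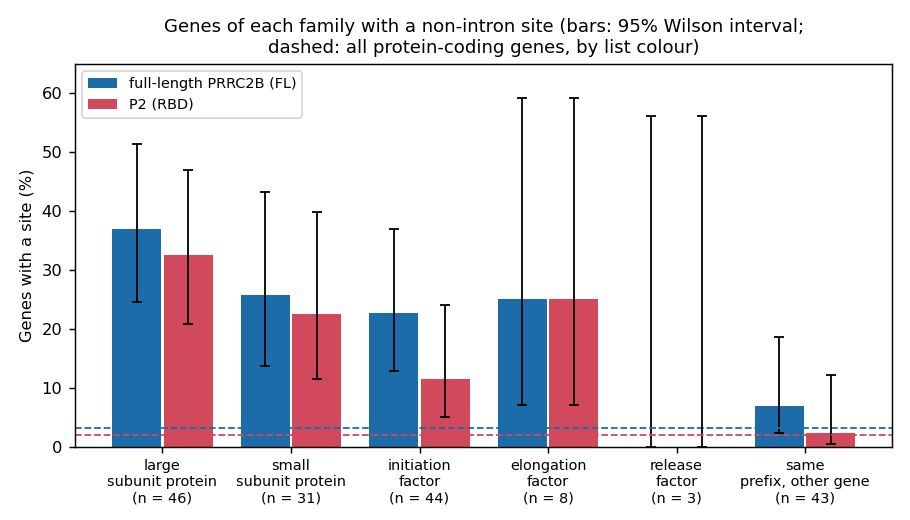
Percent of the genes of each class with at least 1 non-intron site in the full-length PRRC2B list (blue) and the P2 list (red), with 95% Wilson intervals as error bars and the share of all protein-coding genes as dashed lines in the same colours. The bars of the large subunit stand highest at 37% (FL) and 32.6% (RBD), and the 3 release factors have none.

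Of the 46 large-subunit proteins, 20 (43.5%, 30.2 to 57.8) had a site in either list, 12 in both, 5 in FL alone and 3 in RBD alone. Of the 31 small-subunit proteins, 10 (32.3%, 18.6 to 49.9) had one, 5 in both, 3 in FL alone and 2 in RBD alone. Among initiation factors 11 of 44 (25.0%, 14.6 to 39.4) had one, 4 in both, 6 in FL alone and 1 in RBD alone, and among elongation factors 2 of 8. None of the 3 release factor genes, ETF1, GSPT1 and GSPT2, had a site in either list, with a Wilson upper bound of 56.1% for so few genes. Taken by family, 30 of 77 ribosomal protein genes (39.0%, 28.8 to 50.1) and 13 of 55 factor genes (23.6%, 14.4 to 36.3) carried a site, and these intervals overlap.

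Among the large-subunit proteins without a site in either list were RPL3 and RPL5, the latter a carrier of 5S ribosomal RNA, and RPL6, RPL7, RPL9, RPL10, RPL10A, RPL11, RPL12, RPL14, RPL37A and RPL41. RPS3A, RPS4X, RPS7, RPS9, RPS12, RPS18, RPS19, RPS23 and RPS27A were among the 21 small-subunit proteins without one. The 33 initiation factors without a listed exonic site included EIF4E, which binds the mRNA cap, its scaffolds EIF4G1 and EIF4G3 by the deposited names, EIF4B, EIF2S1, EIF2S3, EIF6 and all EIF3 subunits other than EIF3A and EIF3B. EEF1A1, the abundant carrier of aminoacyl-tRNA, had no listed site, nor did EEF1A2, EEF1B2, EEF1D, EEF1E1 and EEFSEC. A gene without a listed site is one below the peak caller's cut-off or filters, which is not the same as an unbound mRNA.

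The symbol rule also takes in 43 genes that share the prefix and were kept apart from the classes above. Among them are the kinases of RPS6 and EIF2, the EIF4E-binding proteins and readthrough genes. Paralogs of ribosomal proteins and factors, such as RPL3L, RPS27L and EIF3CL, also stand here, so the class and family counts above leave them out. Of the 43, 3 carried a site in either list (6.98%, 2.4 to 18.6), near the 4.24% of all protein-coding genes. The kinases were among the 40 without one, and nothing is read from that for so few genes. RPL17-C18orf32, a readthrough gene, held the same site as RPL17 and was counted once among sites. RPL7L1 had an FL site of height 8 in its 3′UTR, in a stretch whose middle 25 nt occur 6 times in the genome. EIF5AL1, an intron-poor copy of EIF5A, had an FL site of height 9 in its coding sequence, and the middle 25 nt of that site occur in the annotated transcripts of EIF5A as well, so the 2 genes cannot be told apart there.

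Sites on ribosomal protein mRNAs were tall within their list. Peak height, the number of overlapping reads at the peak after removal of duplicates, had a median of 13.5 over the 46 FL sites (range 5 to 45) and 13.5 over the 32 RBD sites (range 5 to 29), beside 6 over the other non-intron mRNA sites in each list. Ribosomal protein sites had medians of 18 in FL (n = 27) and 14 in RBD (n = 23), and factor sites 8 in FL (n = 17) and 12 in RBD (n = 9). Heights of at least 10 were reached by 29 of 46 FL sites (63.0%, 48.6 to 75.5), against 22.8% of all non-intron mRNA sites, and by 21 of 32 RBD sites (65.6%, 48.3 to 79.6), against 25.6%. Heights of at least 20 were reached by 10 FL sites (21.7%, with 7.12% of all) and 4 RBD sites (12.5%, with 5.95% of all).

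A share of the tallest other sites lay on PRRC2B itself, the gene of the transfected protein, with 24 of the 51 FL sites and 12 of the 26 RBD sites of height 20 or more. With PRRC2B left out, a choice made after the values were seen, ribosomal protein and factor genes held 10 of 27 such sites in FL (37%, 21.5 to 55.8) and 4 of 14 in RBD (28.6%, 11.7 to 54.6). The tallest member site ranked 5th in FL and 6th in RBD on that reduced list. The 10 tall FL sites belonged to RPL23A (both of its sites), RPS24, RPL32, RPL17, RPL15, RPS3, RPL19, EEF2 and RPS2, and 5 of them overlapped a snoRNA gene.

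The peak caller's expected height, its background estimate for the gene, also stood higher at these sites. Its median was 0.28 in FL and 0.335 in RBD, against 0.03 at the other sites in both lists, and observed over expected height had a median of 51.3 and 47.4, below the 175 and 211 of the other sites. Sites with a high expected height were listed only when tall. In FL the lowest listed height was 4 where less than 0.1 was expected and 16 where 1 or more was, and in RBD 4 and 13. Below 0.1, members had a median height of 6.5 in FL (n = 8) and 7 in RBD (n = 7), and other genes 6 in both. Between 0.1 and 0.3, members had a median height of 10 in FL (n = 17) and 10 in RBD (n = 7), and other genes apart from PRRC2B 8 (n = 81) and 8 (n = 47). Between 0.3 and 1 the medians were 18 (n = 15) and 12 (n = 29) in FL, and 15 (n = 13) and 13 (n = 17) in RBD. At 1 or more the members were not higher, with 18.5 (n = 6) and 29.5 (n = 2) in FL, and 16 (n = 5) and 16 (n = 3) in RBD. The difference in height was therefore smaller at like expected heights than over all sites, or turned in the thinly filled last range of FL, and its sampling error over genes was not estimated.

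**Figure D2:**
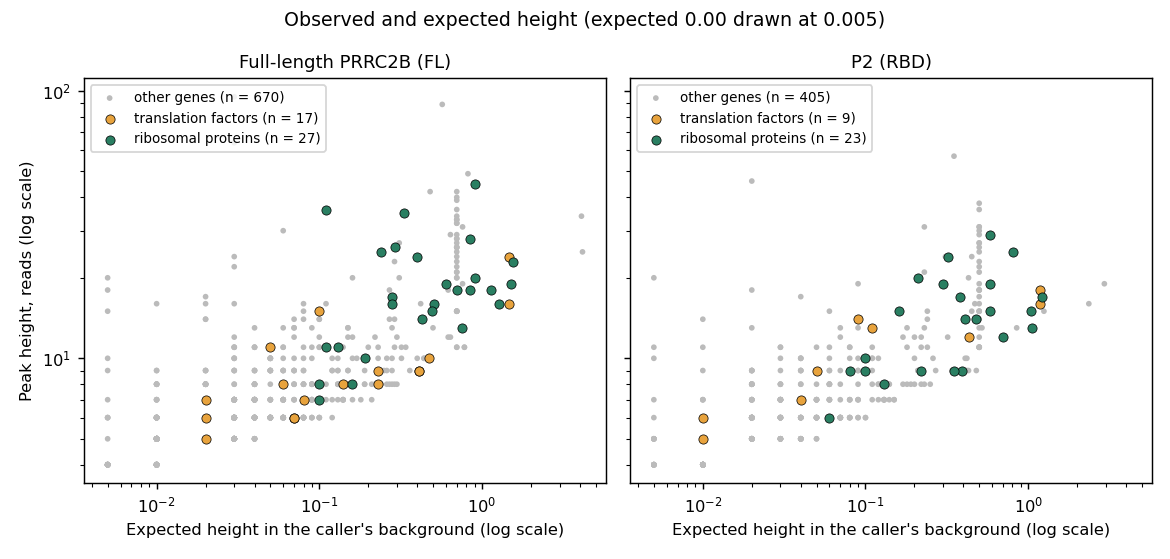
Peak height against the caller's expected height, both on log axes, for every non-intron mRNA site in the full-length list (left) and the P2 list (right), with ribosomal protein sites in green, factor sites in orange and other genes in grey. Ribosomal protein sites lie at expected heights of 0.1 to 1.55 in FL and 0.06 to 1.22 in RBD, where few low peaks are listed; the vertical column of grey points is PRRC2B.

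Among large-subunit mRNAs the tallest site of all was on RPL23A, with a height of 45 in FL (95% exact Poisson interval 32.8 to 60.2) and 29 in RBD (19.4 to 41.6). RPL32 had a site of 35 in FL and 20 in RBD, and RPL17 one of 28 and 25. All 3 lie on snoRNA genes and are described with those below.

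On the coding sequence itself, RPL15 was tallest in FL with 26 (17.0 to 38.1), and it had 19 in RBD (11.4 to 29.7). RPL19 had 24 in each list at the identical position, 310 nt past the start codon, and was the tallest such site in RBD. RPL8, whose product sits near the peptidyl transferase centre, had 19 in FL and 17 in RBD. A second RPL23A site, on its coding sequence, had 20 in FL and 15 in RBD.

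Both acidic stalk proteins and their anchor had a site. RPLP0, the anchor of the stalk that recruits translation GTPases, had 14 in FL and 17 in RBD, RPLP1 had 16 and 14, and RPLP2 had 19 (11.4 to 29.7) in RBD alone. RPL35 had 15 in FL and 9 in RBD, with centres 56 and 26 nt past the start codon. RPL38, described for its part in the translation of particular mRNAs, had 11 in FL and 10 in RBD.

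Sites on RPL18, RPL13A and RPL4 had their centres close to the stop codon. RPL18 had 19 in FL and 14 in RBD, with site centres 3 and 4 nt past the last base of the stop codon. RPL13A, the 3′UTR of which held the centre 42 nt past the stop codon in FL, had 16 in FL and 15 in RBD. RPL4 had 9 in RBD alone, at -13 nt from the end of the stop codon. The remaining large-subunit sites were in 1 list alone: RPL7A with 18, RPL13 with 13, RPL36 with 11, RPL27 with 10 and RPL28 with 7 in FL, and RPL24 with 8 in RBD.

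Among small-subunit mRNAs, RPS24 had the tallest site, 36 (25.2 to 49.8) in FL with none in RBD. RPS3 had 25 in FL and 15 in RBD, and RPS2 23 and 13, both on snoRNA genes. RPS15 was the tallest shared site on spliced mRNA, with 18 in FL and 12 in RBD, centred 64 and 63 nt past the start codon. RPS14 had 8 in FL and 9 in RBD. RPS20 had 8 and 9 in its 5′UTR, at -61 and -60 nt from the start codon.

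RPS6, the substrate of the S6 kinases, had 9 and RPS15A 6, in RBD alone. The RPS15A site centre lay 38 nt from the annotated 5′ end of its transcript, and the RPL36 one 10 nt. Only these 2 ribosomal protein site centres lay within 50 nt of the annotated 5′ end, where mRNAs of this family carry the terminal oligopyrimidine tract that couples them to growth signals.

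Factor sites were lower than ribosomal protein sites in FL, with medians of 8 and 18, and less so in RBD, with 12 and 14. The tallest were on EEF2. EEF2, the GTPase that moves the ribosome by 1 codon, carried a pair of coding-sequence sites in both lists, with 24 (15.4 to 35.7) and 16 in FL and 18 and 16 in RBD. EEF1G, a subunit of the exchange factor for EEF1A, had 8 in FL and 13 in RBD, the lowest FL to RBD ratio among the shared member sites. EIF4H, a helper of the EIF4A helicase, had 15 in FL (8.40 to 24.7) and 14 in RBD, in a 3′UTR stretch whose middle 25 nt occur 3 times in the genome at the FL position. EIF2S2, the beta subunit of the factor that carries initiator tRNA, had 11 and 7.

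EIF3B, a subunit of the large scaffold of the small subunit, had 8 and 9 in its 3′UTR. EIF3A, the largest subunit of that scaffold, had a pair of FL sites of 6 each, 1776 and 2052 nt into the coding sequence. EIF4G2, an EIF4G relative without the cap-binding protein's docking site, had a pair of FL sites of 9 each. EIF5, the GTPase activator of initiation, had FL sites of 9 in its 5′UTR and 8 in its coding sequence. EIF1, which guards start codon choice, had 10, EIF4A3, the helicase of the exon junction complex, 7, and EIF5B, which joins the subunits, 7, all in FL alone.

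EIF4A1 had 12 in RBD alone, and all 100 nt of that site lay on the gene SNORA67. EIF2B5 carried a pair of sites in each list by the deposited names, but none lies inside that gene. The one labelled coding sequence, with 6 in FL and 5 in RBD, falls in the coding sequence of AP2M1. The one labelled 5′UTR, with 5 in FL and 6 in RBD, falls in the 5′UTR of EIF4G1, with centres at -110 and -132 nt from the start codon. Read by position, EIF4G1, the scaffold of the cap-binding complex, thus carried a site in both lists and EIF2B5 none.

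**Figure D3:**
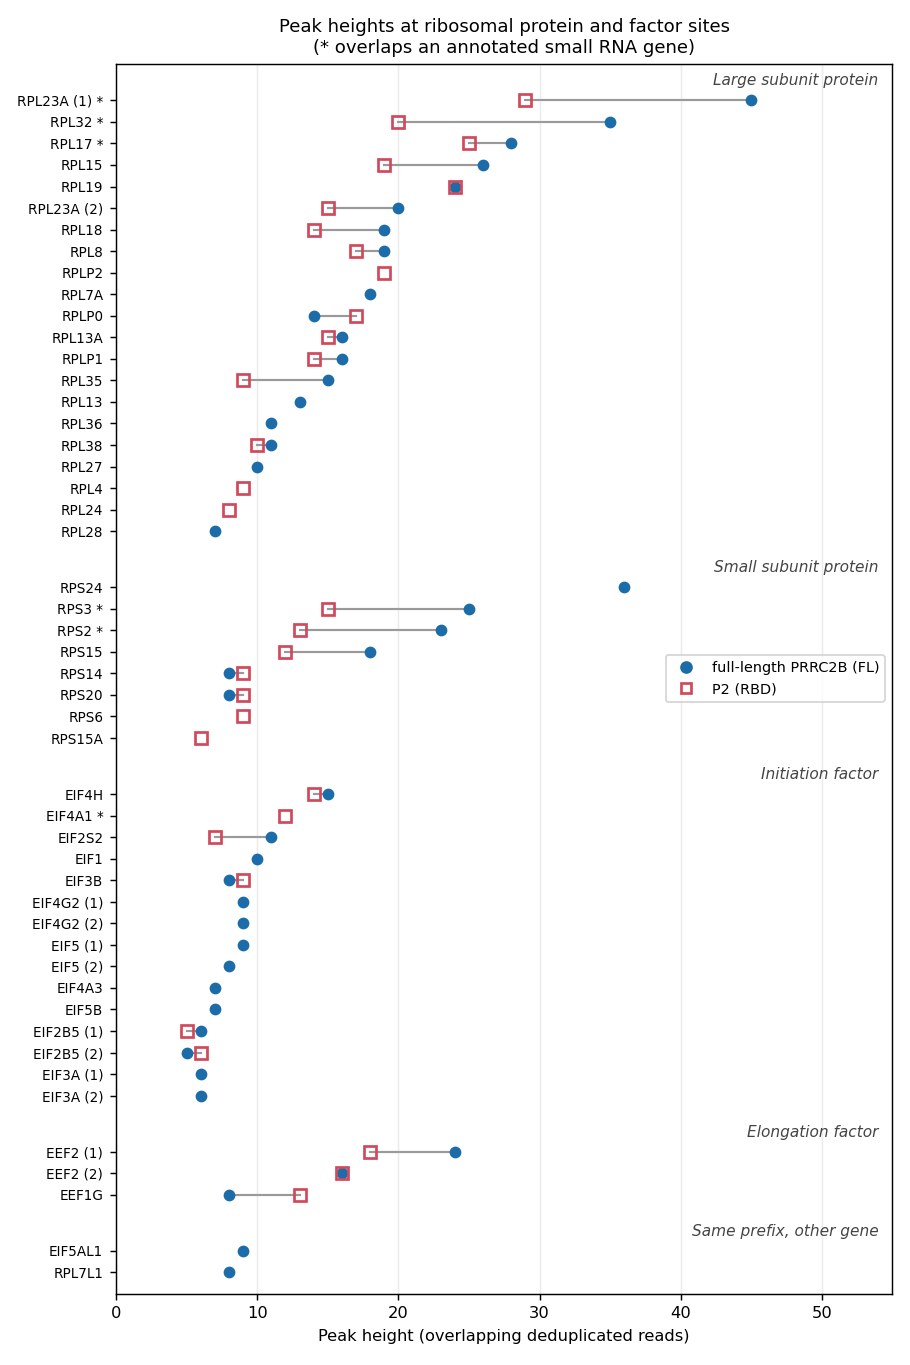
Peak height at each site in the full-length list (blue circles) and the P2 list (open red squares), 1 row a site for the sites described here, grouped by class and joined by a line where the lists share the site; numbers in brackets tell apart sites of 1 gene and an asterisk marks overlap with a small RNA gene. Symbols without a partner are sites of 1 list, and RPS24 at 36 and RPLP2 at 19 are the tallest of those.

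FL and RBD shared most of the tall sites. Sites counted as shared if any base of them, on 1 strand, lay in a site of the other list. Of the 46 FL sites 26 (56.5%, 42.2 to 69.8) were shared, beside 30.6% of all non-intron mRNA sites, and of the 32 RBD sites 26 (81.2%, 64.7 to 91.1), beside 51% of all. Among ribosomal proteins 18 of 27 FL sites and 18 of 23 RBD sites were shared, and among factors 8 of 17 and 8 of 9. At heights of at least 10, however, 20 of 29 FL member sites were shared (69.0%, 50.8 to 82.7) and 98 of 134 sites of other genes were (73.1%, 65.1 to 79.9). The corresponding RBD values were 19 of 21 (90.5%, 71.1 to 97.3) and 78 of 91 (85.7%, 77.1 to 91.5). At these heights the intervals of members and other genes overlapped in both lists. The other genes at heights of at least 10 include PRRC2B itself, with 29 of the FL and 30 of the RBD sites, and sharing without it was not counted. At heights of 4 to 9 the members were shared more often. In FL these were 6 of 17 member sites (35.3%) and 95 of 536 sites of other genes (17.7%). In RBD they were 7 of 11 (63.6%) and 119 of 314 (37.9%). Whether height accounts for the difference in sharing was not tested.

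The shared sites lay almost on top of each other. The median shift between the starts of FL and RBD sites was 4 nt, 20 of the 26 pairs lay within 10 nt, and the largest shift was 30 nt, on RPL35. Heights in FL over RBD had a median ratio of 1.13, from 0.615 on EEF1G to 1.77 on RPS2, beside a median of 1.15 over the 193 shared sites of other genes. FL was the taller in 18 pairs, RBD in 6, and 2 were equal. Since the lists are not scaled to each other, this ratio says how the members stand to other genes and not which protein bound more.

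The sites of 1 list alone included some of the tallest. RPS24 was 1 of 11 non-intron mRNA sites of FL with a height of 36 or more, and of those 11 it was the one without an RBD partner. RPLP2 was likewise the one unshared site among the 31 RBD sites with a height of 19 or more. The middle 25 nt of the RPS24 site occur 3 times in the genome, once on RPS24 and elsewhere in transcripts of RPS24P8 and a further gene, and those of the RPLP2 site once. RPL7A, with 18, was also in FL alone. Whether a second set of libraries would list them for both proteins was not tested.

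The 5 sites over snoRNA genes found in both lists were among the tallest in FL, from 23 on RPS2 to 45 on RPL23A. In RBD their heights ran from 13 on RPS2 to 29 on RPL23A. On RPL23A, 64 nt of the FL site and 63 nt of the RBD site overlapped SNORD42B, which guides methylation of ribosomal RNA as a C/D box RNA. On RPL17, SNORD58B took 65 and 61 nt, and on RPS3, SNORD15A took 63 and 75 nt. The H/ACA box RNA SNORA7A, which guides pseudouridylation, took 59 and 67 nt of the RPL32 site, and SNORA10 took 58 nt of the RPS2 site in each list. On the canonical transcripts all 5 centres, and that of EIF4A1, lie in introns, although the deposited labels call them 5′UTR, 3′UTR or coding sequence.

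Small structural RNA genes were overlapped by 5 of 46 member sites in FL (10.9%, 4.73 to 23.0) and 6 of 32 in RBD (18.8%, 8.89 to 35.3), against 1.49% and 2.96% of the sites of other genes. Without them the median height of the member sites was 11 in FL (n = 41) and 12.5 in RBD (n = 26), still above the 6 of other genes without such overlap. Whether the crosslinked RNA at these places was the snoRNA or the precursor of the mRNA cannot be told apart in these lists.

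By deposited label, with the first label taken where several were given, FL member sites fell on 5′UTRs in 8 cases, coding sequence in 32 (69.6%) and 3′UTRs in 6. The RBD counts were 6, 22 (68.8%) and 4. Other genes had 64% on coding sequence in both lists, and 21.8% of FL and 20.5% of RBD sites on 3′UTRs, where the members had 13% and 12.5%. Among ribosomal proteins the 3′UTR label was given first to 1 of 27 FL sites and 1 of 23 RBD sites. That site is the RPS2 one, which lies over SNORA10. On the canonical transcripts, the FL member sites were in 5′UTRs in 4 cases, coding sequence in 30, 3′UTRs in 7 and introns in 5. RPL38 was labelled 5′UTR in FL and coding sequence in RBD for sites shifted by 7 nt.

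A group of sites lay near the start codon. In FL 9 of 46 site centres (19.6%, 10.7 to 33.2) were within 100 nt of it, against 11.6% (9.43 to 14.3) for other genes, and in RBD 7 of 32 (21.9%, 11 to 38.8) against 11.1% (8.41 to 14.5). For all members these intervals overlap. The coding sequences of ribosomal proteins are short, so a larger share of each lies near the start codon, and the part of this in the counts was not tested. For ribosomal proteins alone the counts were 8 of 27 in FL (29.6%, 15.9 to 48.5) and 7 of 23 in RBD (30.4%, 15.6 to 50.9), and these intervals lie above those of other genes. RPLP1, RPL38, RPL35, RPS15 and RPS20 were in this range in both lists, RPL13, RPL27 and RPL36 in FL and RPLP2 and RPS15A in RBD.

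**Figure D4:**
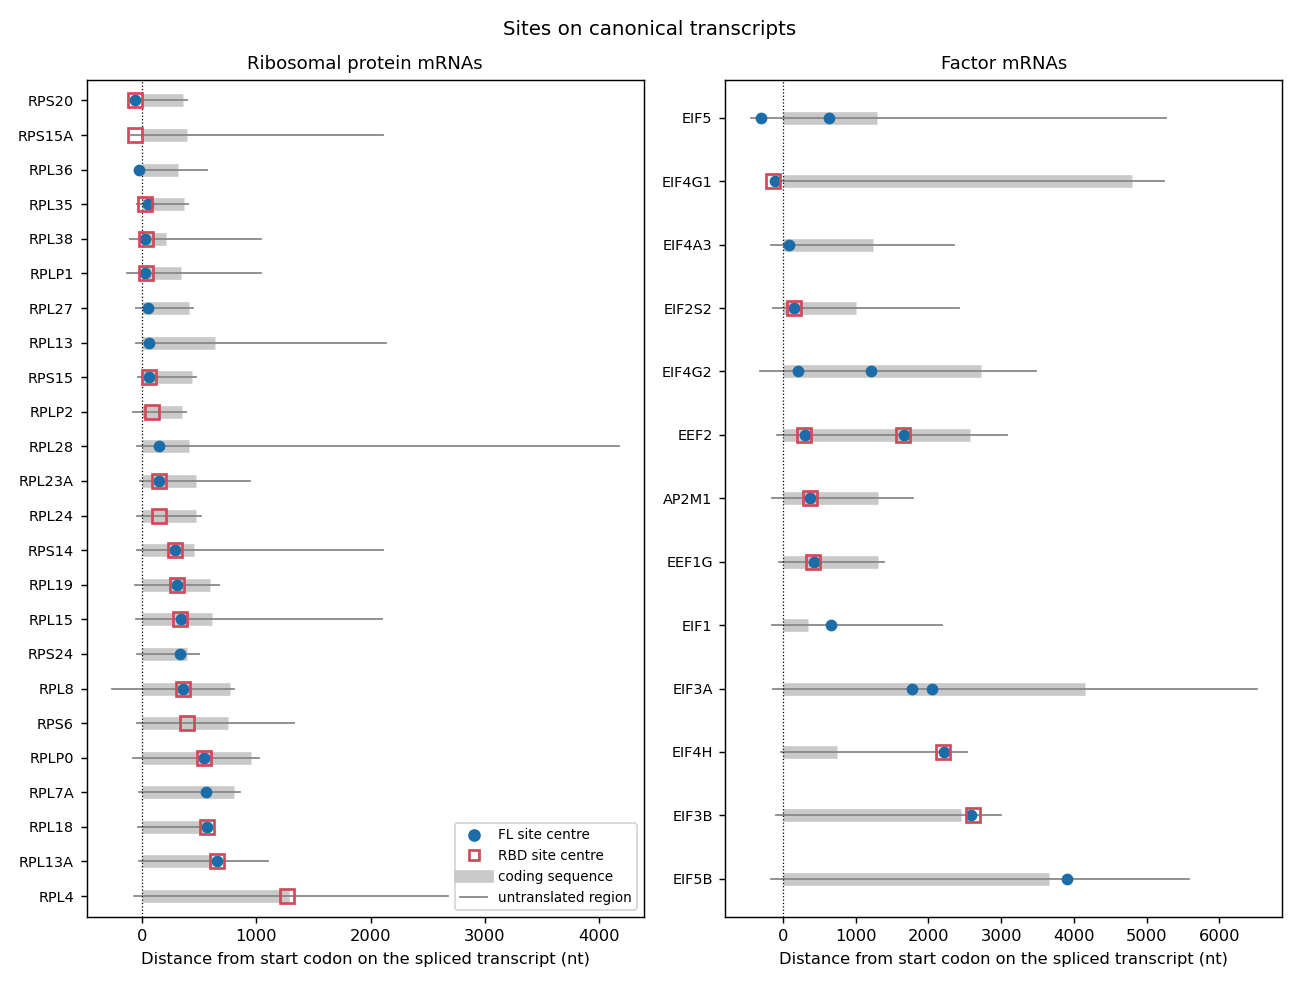
Centres of the sites described here on spliced canonical transcripts, in nt from the start codon, with full-length sites as blue circles, P2 sites as open red squares, coding sequence as thick bars and untranslated regions as thin lines. Ribosomal protein sites lie mostly on coding sequence, with a group from RPS20 at -61 to RPLP2 at 89; the sites named EIF2B5 are drawn on AP2M1 and EIF4G1, where they lie, and the snoRNA sites are left out because their centres are not in an exon.

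Member sites held fewer pyrimidines than the sites of other genes, at their ends as well as in the middle. In FL the mean C+U of members was 45.6% in the first, 49.1% in the middle and 46.6% in the last 30 nt. Other genes had 50.2%, 54.7% and 49.6%. The RBD values were 49%, 51.4% and 45.3% for members, and 50.7%, 57.2% and 50.1% for other genes. Whether the whole transcripts differ in composition was not tested. In the middle 41 nt the median C+U content was 47.6% in FL and 48.8% in RBD, against 56.1% and 58.5% for other genes, and the mean ± SD was 48.3 ± 14.8% (n = 46) and 50.3 ± 11.5% (n = 32), against 53.7 ± 17.1% and 55.8 ± 17.1%. Of the middle 30 nt windows, 13 of 46 in FL were at least 60% pyrimidine (28.3%, with 49.4% of other genes) and 9 of 32 in RBD (28.1%, with 53.6%). Windows of at most 40% pyrimidine, the purine-rich ones, were 17 of 46 in FL (37%, with 27.0%) and 7 of 32 in RBD (21.9%, with 22.2%). Single sites differed widely: RPS24 had 19.5% over 41 nt and EIF4H 75.6% in FL, both printed above.

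The pyrimidine-rich member sites included EIF4H, EIF3B, RPLP0, RPL13A, RPLP1, RPS20 and the lower EEF2 site in both lists, with 61 to 75.6% over 41 nt. The purine-rich ones included EIF3A, EIF2S2, EIF5AL1, EIF4A3 and RPL35, with 24.4 to 31.7%.

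The letters CTCT, searched on the sense strand in the middle 30 nt, were held by 10 of 46 FL member sites (21.7%, 12.3 to 35.6) and 41.5% (37.8 to 45.3) of the FL sites of other genes. In RBD they were held by 8 of 32 (25.0%, 13.3 to 42.1) and 45.4% (40.6 to 50.3). Over all non-intron mRNA sites the shares were 40.2% in FL and 43.9% in RBD. On the other strand, which reads AGAG here, the shares over all sites were 8.24% and 7.78%. For AGAG the members did not lie below other genes, with 8.7% against 8.21% in FL and 12.5% against 7.41% in RBD. The member shares rest on 4 sites in each list. At the ends of the FL sites CTCT was in 2.17% of the first and 8.70% of the last 30 nt of the member sites. Other genes had 14.2% and 11.6% there. The RBD ends held it in 12.5% and 6.25% of the member sites, and 17.3% and 13.6% of those of other genes. EIF4H, EIF1, RPL15, RPL18, RPL17 and RPL36 were among those that held it in the middle 30 nt.

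The letters ACT, chosen after the sequences were seen, were held by 31 of 46 FL member windows (67.4%, 53.0 to 79.1), 50.4% (46.7 to 54.2) of those of other genes and 51.5% of all. In the first and last 30 nt of the same member sites the shares were 21.7% and 32.6%, beside 28.7% and 29.1% for other genes. In RBD 18 of 32 middle windows held it (56.2%, 39.3 to 71.8), with 49.9% of other genes and 50.3% of all. The RBD member shares at the ends were 31.2% and 37.5%, beside 28.1% and 30.4% for other genes. AGT, the same letters on the other strand, was in 10.6% of all middle windows in FL and 10.8% in RBD. ACT overlaps CTCT wherever ACTCT occurs, as on EIF4H, RPL17 and RPL32 above. RNase T1, which cuts after G, and 4sU crosslinking, which acts at U, both shape which letters stand at a peak, and their part was not tested.

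**Figure D5:**
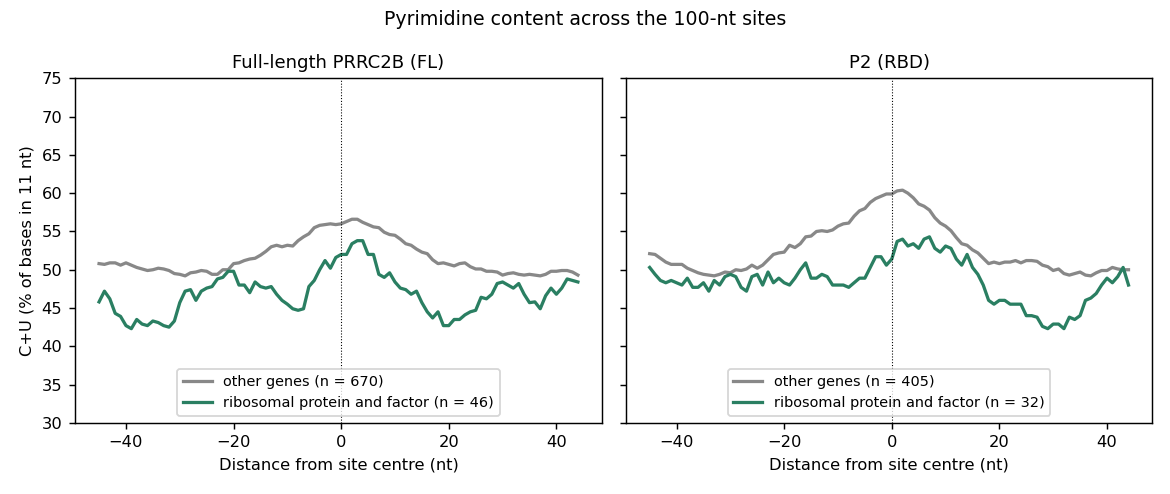
Percent C+U in 11-nt windows by distance from the site centre, for ribosomal protein and factor sites (green) and sites of other genes (grey) in the full-length list (left) and the P2 list (right). Both curves are highest near the centre, but the green one rises unevenly. In FL it goes from 49.8% at -20 nt to 44.7% at -8 nt and 52% at the centre. In RBD it goes from 50.3% at -45 nt to 48% at -10 nt and 51.4% at the centre. The green curve lies below the grey one at the centre and at most other distances.

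Copies elsewhere in the genome were more common under member sites. The middle 25 nt occurred more than once in 15 of 46 FL sites (32.6%, 20.9 to 47.0) and 9 of 32 RBD sites (28.1%, 15.6 to 45.4), against 9.10% and 9.63% of the sites of other genes. Ribosomal protein genes have many processed pseudogenes, and their names stand among the matches: RPL35P2 and RPL35P5 for RPL35, RPLP0P2 and RPLP0P6 for RPLP0, RPL13P2 and RPL13P12 for RPL13, and RPL23AP2 and RPL23AP42 for the second RPL23A site. At such places a read cannot be assigned to 1 gene by its sequence alone.

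Another 19 genes of ribosome function and translation outside the symbol rule were picked by hand, with earlier results of these data known. Of these, 11 had a site in either list (4.24% of all protein-coding genes did) and 4 in both (0.874% did), and nothing is read from the difference for a list so chosen. RACK1, a small-subunit scaffold protein, was the tallest, with 29 and 12 in FL and 20 and 9 in RBD. SERBP1, which clamps idle ribosomes, had 16 and 13, NPM1 8 and 6, and PAIP2, an inhibitor of poly(A)-binding protein, 5 and 5. PABPC1 had 6, TPT1 8 and ABCE1 5 in FL alone, and PABPC4 had 6, NACA 7 and PDCD4 5 in RBD alone.

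RPSA, a small-subunit protein whose symbol carries no number, had 16 in RBD alone, with middle 25 nt that occur 4 times in the genome. RPSAP58, looked at after its values were seen, had FL sites of 16, 24 and 9. Its tallest FL site and the RPSA site of RBD have the same letters over their first 78 nt, so the 2 lists may name the same sequence differently. LARP1, which binds the 5′ ends of ribosomal protein mRNAs, was among the 8 genes without a site, as was FAU, a ribosomal protein made as a ubiquitin-like fusion.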

How the data were processed

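The deposited files are 1 list of annotated sites and 1 BED file for each of FL and RBD, each pooled by the authors over 2 replicates. The authors trimmed adapters with cutadapt, mapped reads of RNase T1 fragments to hg38 with Bowtie (version 1.2.1.1 in the submitters' processing notes), removed duplicates and called 100-nt peaks with CLIP Tool Kit. Peak height, a signal in deposited reads, is not scaled to library depth. The other deposited field used, an annotation string of the peak caller, holds the expected height and the authors' p. The BED files were not used.

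Records at 1 position and strand were counted as 1 site. Genes, canonical transcripts and small RNA genes came from GENCODE 44, and sequences from the hg38 genome. The middle 25 nt were searched on both strands of 25 chromosomes. Python 3.11.15, pandas 2.3.3, scipy 1.17.1 and pysam 0.24.0 were used. Overlap calls were tested on simulated intervals. Shares have 95% Wilson intervals and heights exact Poisson intervals, for counting error only, and no test of significance was run. Samples were grouped by the labels. Named genes are all members with a site, with full values for shared sites and the tallest of each family. Members and lists were chosen with earlier results of these data known. Alternatives changed the record count, height, p, overlap, gene list, region label and window. Some genes and sequences that count in the totals are not reported here.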

Additional observations from a re-analysis of the deposited data

Results flagged for a closer look

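EIF3E, a subunit of EIF3, had no exonic site but a pair of overlapping intron sites in each list, which the comparisons above do not use. Their heights were 12 and 28 in FL and 11 and 22 in RBD, with an expected height of 0.01. Their middle 25 nt occur once in the genome. The flag asked for a height above 3 reads. The lowest listed height was 3 in each list, so passing that limit does not single these sites out.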

How the results depend on the processing

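Of 50 alternative values over 12 results, 43 stayed within the interval of the value reported, or within 1.5 times a count. With sites of height 10 or more only, the members held 29 sites in FL and 21 in RBD, or 17.8% and 18.8% of the non-intron mRNA sites. With the last of several deposited labels, 43.5% of FL and 37.5% of RBD member sites were on coding sequence. With an overlap of at least 90 nt, 62.5% of the RBD sites were shared. The canonical transcript as region source, and leaving out small structural RNA overlaps for the site counts, the shares of sites and C+U, were added after seeing the data. No paired analysis was possible because both replicates of a protein are merged in a list, and leaving out a replicate was not run for the same reason. Depth per library is unknown, so a gene without a site may be one with too few reads.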
